A study of Mus musculus with 12 samples.

Results

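Spp1 encodes osteopontin, and its transcript was followed through 12 RNA-seq libraries of mouse bone marrow cells as 1 gene of the 19910 in the deposited count table. The gene was chosen on its measured values across these libraries, so its own levels, ranks and differences are given as a description, with no test. The marrow came from female C57Bl/6 mice of 6 to 10 weeks and was transduced with retrovirus made in 293T17 cells, a human embryonic kidney line used for packaging. There were 4 groups of 3 libraries: a control group that received empty vectors only, a group with SETBP1 D868N and an empty vector, a group with NRAS G12D and an empty vector, and a group with both mutant vectors. Every group thus carried 2 vectors from the same transduction procedure, and the controls differ from the others in the inserts, as far as the labels go. The labels call all of them murine leukemia cells; the promoter in the vectors, the share of cells transduced and the time between transduction and harvest are not given in the sources used here. Whether the 3 libraries of a group go back to 3 mice or cultures is not stated either, so the p-values below measure only the spread between these samples, which may be technical. SETBP1 D868N is a change known from myeloid neoplasms that keeps the SETBP1 protein from being degraded, and NRAS G12D is a change that holds the RAS protein in its active, signalling form.

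Osteopontin is a secreted, heavily phosphorylated glycoprotein of the SIBLING family, a set of acidic bone and tooth matrix proteins whose genes lie side by side. It acts both as a matrix component and as a cytokine: it binds integrins through an RGD motif, binds other integrins through a neighbouring site that is exposed when thrombin cuts the protein, and is also a ligand of CD44. In marrow it is made by bone-lining cells and by activated macrophages, and it is known as a brake on the expansion of blood stem cells and as a product of RAS-transformed cells.

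The mouse gene (ENSMUSG00000029304.14) lies on chromosome 5, plus strand, at chr5:104435118-104441050 of mm10, with 6 exons in a longest coding transcript of 1507 bases, of which 885 code for protein. Its promoter is shown because the factors described further on act on short elements of this kind. RefSeq's table holds 2 stretches for the gene; the upstream one is shown, and counts per gene do not tell which start was used. The stretch is RefSeq's for GRCm38.p6 (the same assembly as mm10), chr5:104434861-104435160 on the plus strand, from 250 bases before to 50 bases after the RefSeq start at 104435111, and the capitals mark every match to the 7 motifs searched on both strands.
Spp1 promoter: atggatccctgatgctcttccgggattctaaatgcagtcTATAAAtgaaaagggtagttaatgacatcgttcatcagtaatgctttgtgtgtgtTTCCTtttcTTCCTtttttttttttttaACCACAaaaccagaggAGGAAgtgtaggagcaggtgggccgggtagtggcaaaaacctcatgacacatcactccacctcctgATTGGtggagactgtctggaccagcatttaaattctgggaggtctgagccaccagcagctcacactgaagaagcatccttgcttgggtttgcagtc
AGGAA, the form of the ETS core that was searched, was found 3 times. It lay 112 bases before the start as written, and on the other strand as TTCCT 147 and 156 bases before the start. Of the 32851 RefSeq promoter stretches of this length, 66.7% hold it. Other forms of the ETS core were not searched, so this is not a count of all such cores in the window. The RUNX motif ACCACA occurred once, 128 bases before the start, and is held by 16.8% of the stretches. CCAAT occurred once on the other strand (ATTGG, 46 bases before the start; 37.4% of stretches), and TATAAA once, 211 bases before the start (13.6%). The AP-1 motif TGANTCA (7.8% of stretches), the E-box CACGTG (7.2%) and the GC box GGGCGG (35.7%) did not occur in these letters in this window. No motif overlapped another, and a match describes letters only.

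The libraries held 7085894 to 8864919 counts each. Levels are given as normalised CPM, which are counts brought to a common library size and scaled by TMM, edgeR's trimmed mean of M values. The replicates of each group correlated at r = 0.984 to 0.991 across the genes tested (log2 CPM), except that SETBP1 replicate 3 correlated at only 0.946 and 0.953 with the other libraries of its group; the main results that rest on it are given with and without it. Nras matched the labels: its mean was 86.4 normalised CPM ± 5.75 (SD, n = 3) with empty vectors and 1519.2 ± 165.5 with mutant NRAS. Mouse Setbp1 had 0 counts in each of the 6 libraries without the SETBP1 vector and 5 to 17 counts in each of those with it. The cells carried a myeloid profile, with Mpo (myeloperoxidase) and Lyz2 (lysozyme) the genes with the largest shares in the control libraries, at 1.60% and 1.16% of counts.

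In the 3 control libraries Spp1 took 1018, 1595 and 566 counts, or 0.0118%, 0.0210% and 0.00799% of the library (exact 95% binomial interval of the lowest, which covers counting error only, 0.007343% to 0.008674%). It ranked 2038th, 940th and 3119th among the roughly equal numbers of genes with a count (12684 to 12800). With mutant SETBP1 alone it took 2915, 1699 and 5459 counts, or 0.0367%, 0.0232% and 0.0616%, and ranked 415th, 824th and 176th. With mutant NRAS it was the most counted gene in every library, alone or with SETBP1: the NRAS libraries held 173118, 182585 and 210622 Spp1 counts (2.24%, 2.42% and 2.62%), and the libraries with both mutants 232176, 215874 and 253327 (3.11%, 2.69% and 3.24%). One count in 38 to 45 was therefore Spp1 with NRAS alone and one in 31 to 37 with both mutants, against one in 4754 to 12519 with empty vectors. The 4 groups stood in the order empty, SETBP1, NRAS, both mutants, and no library of one group reached into the next. A lower level in such bulk samples cannot tell fewer cells of a type from less RNA per cell.

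**Figure D1:**
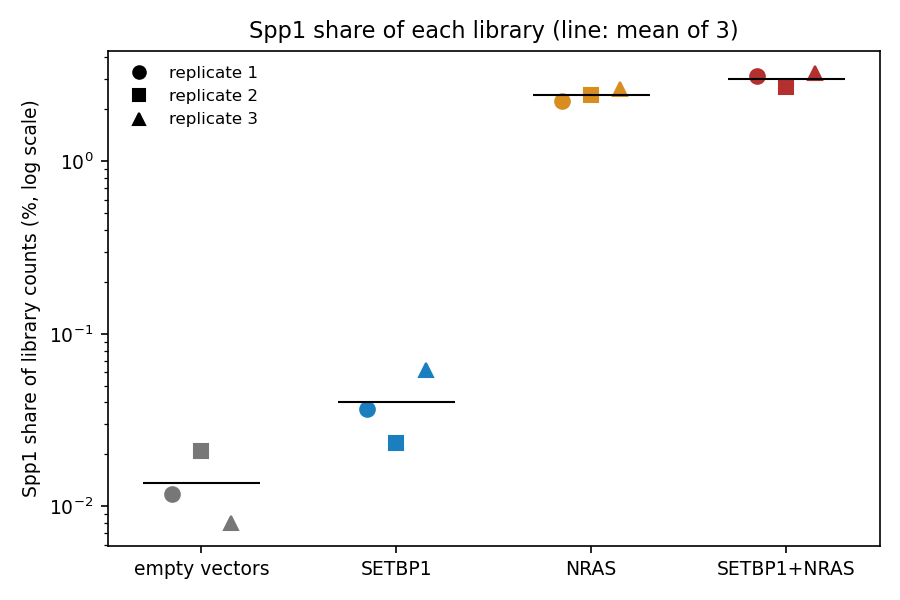
Spp1 counts as a percentage of all counts of the library, on a log scale, for the 3 libraries of each group (symbols mark the replicate number, lines the mean of 3). The control and SETBP1 libraries lie between 0.00799% and 0.0616%, and the 6 libraries with mutant NRAS between 2.24% and 3.24%.

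The genes next to Spp1 in abundance changed with the group. By mean share in the control libraries it stood beside Glrx5 and Cdc45 at 0.0136%. With SETBP1 alone it stood beside Slc1a5 and Tapbp at 0.0405%. With NRAS alone its mean share of 2.43% ± 0.189 (SD, n = 3) was followed by Actb at 1.10%, Ftl1 at 0.799%, Fth1 at 0.642% and Mpo at 0.600%. With both mutants, 3.01% ± 0.286 was followed by Actb at 1.05%, Fth1 at 0.991% and Ftl1 at 0.944%. Actb encodes cytoplasmic actin, and Ftl1 and Fth1 the ferritin light and heavy chains; in single libraries Spp1 held 2.05 to 3.08 times the counts of the most counted other gene.

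Long transcripts give more fragments per molecule, so the order of genes was also taken per kilobase of transcript. On that scale Spp1 stood at 86.5 normalised CPM per kilobase with empty vectors (rank 1030 of 19898 genes with a length), at 269.4 with SETBP1 (rank 273), and first in both NRAS groups, at 16417.5 with NRAS alone and 20818.3 with both. Ftl1 came second there, at 8417.8 and 10152.4. Spp1 was also first in both NRAS groups by coding length.

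**Figure D2:**
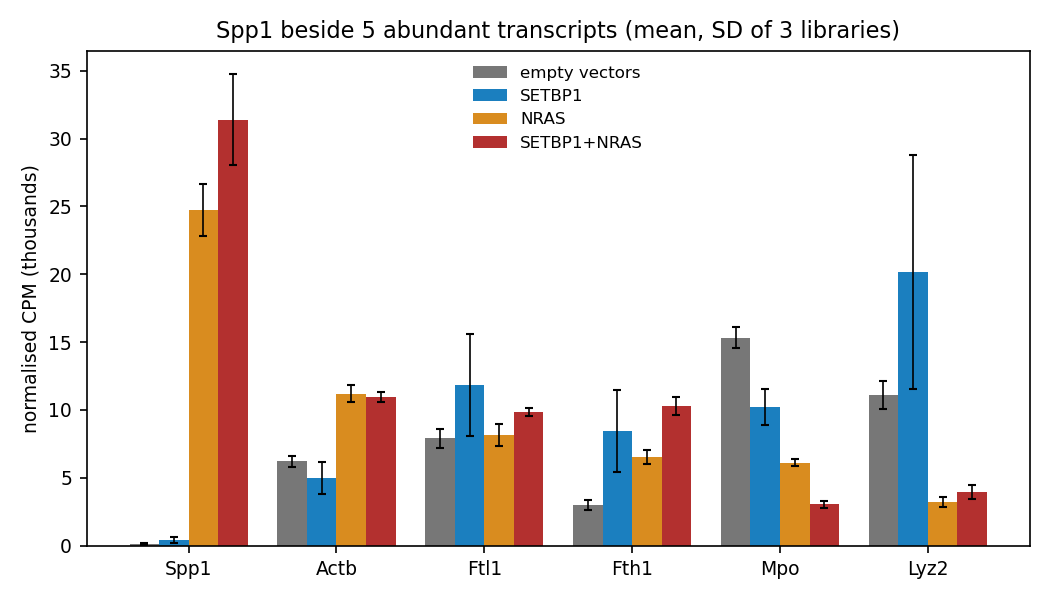
Mean normalised CPM (axis divided by 1000, bars from 0, error bars SD of 3 libraries) of Spp1 and of 5 abundant transcripts in each group. Spp1 is barely visible in the control and SETBP1 groups and stands above every other bar at 24741.2 with NRAS and 31373.1 with both mutants, while Mpo and Lyz2 are highest without NRAS.

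Mutant NRAS went with 189.6 times as much Spp1 as empty vectors. The group means were 24741.2 normalised CPM ± 1911.1 (SD, n = 3) and 130.4 ± 64.9, a log2 difference of 7.57 (SE 0.44 in edgeR's fit of all 12 libraries), and the lowest NRAS library held 112.9 times the level of the highest control library. Ranked by log2 difference from the largest rise down, Spp1 was 12th of 9321 genes with a mean count of at least 50 in either group. In the share of the library it was first: Spp1 gained 2.41 percentage points, 16.9% of the 14.3 points gained by all genes that gained, and Actb came next with 0.449 points. On top of mutant SETBP1 the same vector went with 77.2 times as much, from 406.0 ± 217.1 to 31373.1 ± 3358.0 (log2 difference 6.27, SE 0.42), and Spp1 took 18.1% of the whole gain in share. This comparison and the one above use different libraries on both sides.

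Mutant SETBP1 alone went with 3.11 times as much Spp1 as empty vectors (log2 difference 1.64, SE 0.35). The SEs given for Spp1 rest on a spread shared by all groups, not on that of the groups compared. Its log2 CPM had an SD of 0.71 with empty vectors and 0.77 with SETBP1, but 0.11 with NRAS and 0.16 with both. Single libraries stood at 112.5, 202.4 and 76.3 normalised CPM with empty vectors and at 350.8, 221.9 and 645.4 with SETBP1. The lowest SETBP1 library was thus only 1.10 times the highest control library, and the highest was SETBP1 replicate 3, the library that stands apart. Without it the log2 difference was 1.13 (SE 0.24). The NRAS difference did not depend on it: 7.57 with it and without it.

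Added to mutant NRAS, mutant SETBP1 went with 1.27 times as much Spp1, a log2 difference of 0.34 with an SE of 0.33 in the fit of all libraries. That SE also takes in the control and SETBP1 libraries, where the SD of log2 CPM was 0.71 and 0.77. In the groups compared here it was 0.11 with NRAS and 0.16 with both. The NRAS libraries stood at 22858.4, 24685.8 and 26679.4 normalised CPM and those with both mutants at 32450.2, 27608.7 and 34060.5; the lowest of the second set was 1.03 times the highest of the first. Fold changes and amounts order these steps differently. On the log2 scale the SETBP1 step was smaller with NRAS than without it (interaction -1.30, SE 0.48; -0.79, SE 0.31, without SETBP1 replicate 3). In amount it was 24.1 times larger, 6631.9 normalised CPM against 275.6; without SETBP1 replicate 3 the smaller step was 155.9 and the ratio 42.5. The 0.586 points of library share that Spp1 gained over NRAS alone were the largest gain of any gene in that comparison, out of 5.34 points gained in all, and Fth1 came next with 0.349. Ranked by log2 difference from the largest rise down, Spp1 was only 421st of 9021 such genes there, with a mean count of at least 50 in either group.

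Spp1 varied more than most genes where it was low. Its coefficient of variation (CV, the SD over the mean) over the 3 control libraries was 49.8%, against a median of 7.05% over 9145 genes with a mean count of at least 50 in that group; it ranked 5th. Counting error alone would give 3.07%. Of 1712 genes within 1.5 times its level, 0 had a larger CV, and their median was 5.12%. With SETBP1 the CV was 53.5%, rank 212 of 9109, in a group whose median gene already varied by 15.6%. These CVs rest on single libraries: the control value was 27.1% without replicate 2 (median gene 5.68%, rank 211), and the SETBP1 value 31.8% without replicate 3 (median gene 7.66%, rank 248). With NRAS it was 7.72%, near the median of 7.37%, and with both mutants 10.7%, against a median of 6.85% (3.42%, under the median of 4.92%, without replicate 2).

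**Figure D3:**
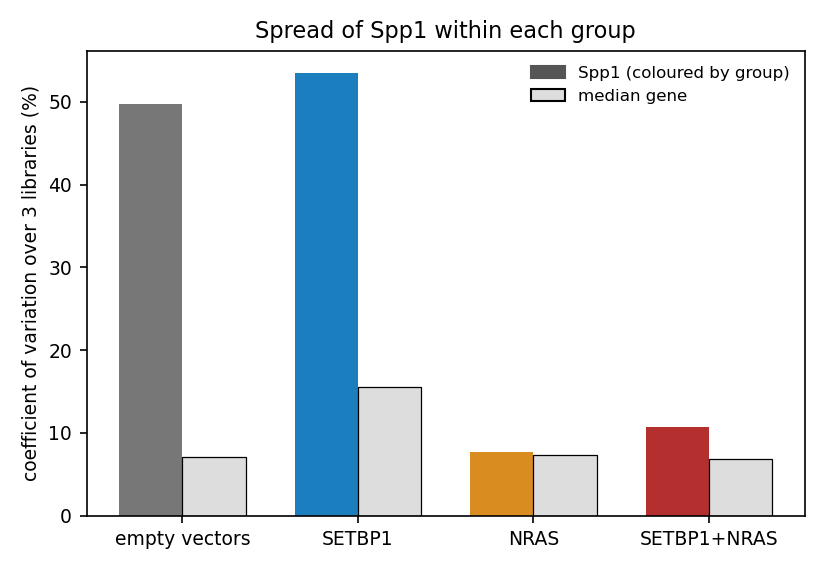
Coefficient of variation over the 3 libraries of each group, in percent, for Spp1 (coloured bars) and for the median gene with a mean count of at least 50 (pale bars). Spp1 stands at 49.8% and 53.5% in the control and SETBP1 groups, far above the pale bars, and at 7.72% and 10.7% with mutant NRAS, close to them.

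In the control group 17 genes had a CV of at least 40%, and 7 of them, Spp1 included, were highest in replicate 2 and lowest in replicate 3. One is Mmp12, macrophage elastase, with 43.0, 88.6 and 38.2 normalised CPM; the others are Rnase2a, Wfdc17, Inf2, Kcng2 and Maf. These names were read off after the values were seen. Their NRAS levels went different ways: Mmp12 averaged 606.3 there, while Wfdc17 averaged 5.84 against single control values of 8.51, 15.6 and 7.28.

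None of the genes around Spp1 passed a test. Its SIBLING relatives Dspp, Dmp1, Ibsp and Mepe, which build dentin and bone matrix, lie before it within 300 kb and had 0 counts in all 12 libraries. Pkd2, a calcium channel gene 18.4 kb after Spp1, averaged 9.57 normalised CPM with empty vectors and 13.7 with NRAS, and BC005561, 67.3 kb after it, 28.1 and 19.6. Neither passed the threshold used here for all other genes, a Benjamini-Hochberg adjusted p under 0.05 over 10993 genes in edgeR's quasi-likelihood test, in any of the 4 comparisons of groups.

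Of the 11 receptor subunits listed, 9 had enough counts to be tested; Itgb6 and Itga9 did not exceed 0.381 normalised CPM in any library. With mutant NRAS 4 of the 9 rose and 4 fell, where 17.0% of all genes tested rose and 15.5% fell (1868 and 1708 genes; 1381 and 2265 when scaled by library size alone). The median log2 difference of the 9 was 0.16, that of all genes -0.01. The ligand's transcript was thus higher while its receptors' went both ways.

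Cd44, the hyaluronan receptor that also binds osteopontin, stood at 185.3, 196.4 and 159.3 normalised CPM with empty vectors and at 369.4, 357.2 and 380.5 with NRAS. The groups do not overlap, and the log2 difference was 1.03 (SE 0.11, adjusted p = 7.13e-06, edgeR). Itgb1, the β1 subunit that pairs with αv, α4, α5 and α8, rose from 279.4, 275.5 and 299.6 to 336.0, 331.8 and 389.9. Itga5, the α5 subunit of the fibronectin receptor, rose from 46.8 ± 3.90 (SD, n = 3) to 78.0 ± 2.36. Itga8 rose too, but on 2, 0 and 4 counts with empty vectors and 26, 36 and 35 with NRAS. Only the libraries with NRAS gave Itga8 enough counts to be tested, so it could hardly fall. Per kilobase, Itgb1 and Cd44 were the most abundant subunits with NRAS, at 92.4 and 65.7 normalised CPM, against 0.730 for Itga8.

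Itgb5, the β5 partner of αv, had 93.6, 99.5 and 92.6 normalised CPM with empty vectors and 40.8, 35.7 and 35.8 with NRAS. This was the clearest fall in the list (log2 difference -1.35, SE 0.10, adjusted p = 2.11e-07, edgeR). Itgb3, the β3 partner of αv in the classical osteopontin receptor of osteoclasts and platelets, fell from 44.7 ± 5.79 to 30.5 ± 7.29, a call that was lost when any of 4 single libraries was left out. Itga4 and its partner Itgb7, subunits of leukocyte homing receptors, fell from 55.8 ± 2.53 to 38.9 ± 1.68 and from 198.3 ± 9.62 to 143.1 ± 5.32. The Itgb7 call was lost without control replicate 2 or NRAS replicate 3. Itgav, the αv subunit itself, stood at 18.6 ± 1.69 with empty vectors and at 20.8 ± 1.41 with NRAS (adjusted p = 0.635).

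With mutant SETBP1 alone, 1 receptor subunit passed and fell, Itgb3, where 8.31% of all genes rose and 6.55% fell (913 and 720 genes). It had 51.0, 39.6 and 43.4 normalised CPM with empty vectors and 24.3, 24.9 and 18.1 with SETBP1, with no overlap (log2 difference -0.99, SE 0.17, adjusted p = 0.00451, edgeR). Itgav, with 18.1, 9.01 and 7.92 after SETBP1 transduction, did not pass (adjusted p = 0.0730; DESeq2 and limma-voom each called 2 subunits). Itgb7, with 141.0, 131.9 and 210.1, did not pass either, and its high value is SETBP1 replicate 3; without that library 2 subunits were called.

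When SETBP1 was added to NRAS, 0 of the 9 subunits passed in edgeR (3 had an unadjusted p under 0.05; DESeq2 called 1 and limma-voom 0), where 0.528% of all genes rose and 1.38% fell (58 and 152 genes). Itgb3 had 28.9, 24.2 and 38.5 with NRAS and 19.8, 20.1 and 18.4 with both (adjusted p = 0.0909). Without SETBP1 replicate 3, a library of neither group, 1 subunit was higher and 1 lower, and 836 genes were called instead of 210. When NRAS was added to SETBP1, 5 rose and 2 fell, where 20.9% of all genes rose and 21.5% fell (2293 and 2368 genes; 1722 and 2887 by library size alone). The 5 were Cd44, Itgav, Itgb1, Itga5 and Itga8, and the 2 were Itgb5 and Itga4. Cd44 went from 153.4 ± 22.9 to 375.7 ± 23.3.

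**Figure D4:**
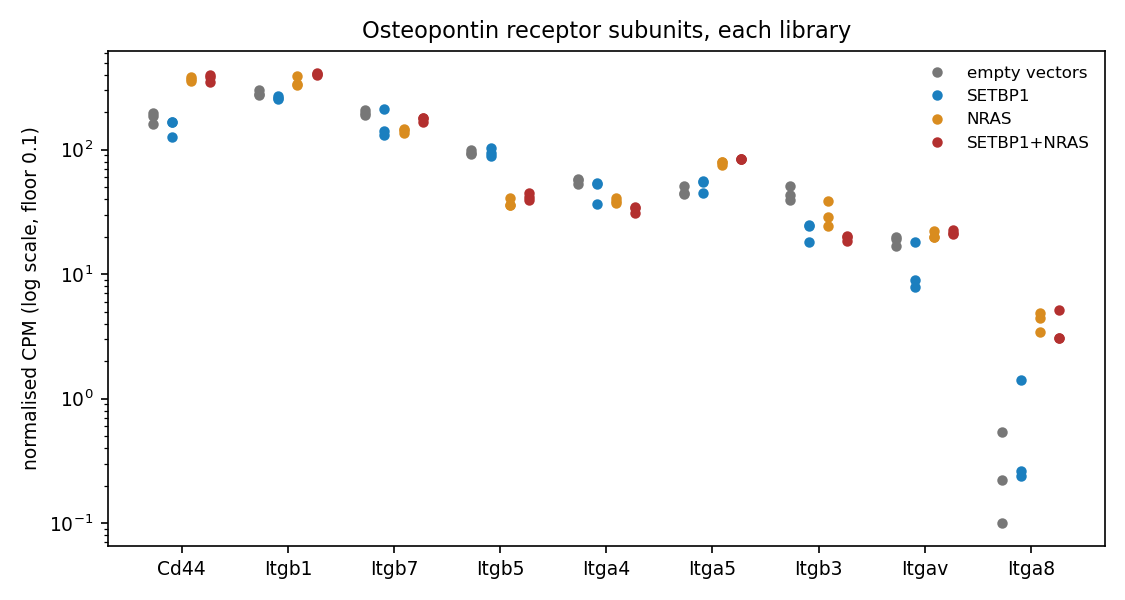
Normalised CPM of the 9 osteopontin receptor subunits tested, on a log scale, with 1 point for each of the 12 libraries, coloured by group (values under 0.1 are drawn at 0.1, which applies to 1 control library for Itga8). Cd44, Itga5 and Itga8 are higher in all 6 libraries with mutant NRAS than in the 6 without it, and Itgb5 is lower in all 6.

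Osteopontin's activity also depends on enzymes that cut it, load it with phosphate or crosslink it. Of 14 such genes, 8 had enough counts to be tested; F2 (thrombin), Plg (plasminogen), Mmp3, Cpb2 and Cpn1 stayed at or under 1.12 normalised CPM in each library and Mmp7 had 0 counts. With NRAS 4 rose and 3 fell, where 17.0% and 15.5% of all genes did. With SETBP1 alone 2 rose (Mmp12 and Acp5) and 1 fell (Mmp9), where 8.31% and 6.55% of all genes did; 1 rose without control replicate 1 or 3 and 4 without SETBP1 replicate 1, 2 fell without SETBP1 replicate 2 or 3, and a fit of the 2 groups alone called 1 rise and 0 falls. Mmp12 stood at 43.0, 88.6 and 38.2 normalised CPM with empty vectors and at 615.8, 526.9 and 676.2 with NRAS (log2 difference 3.42, SE 0.42, adjusted p = 3.15e-05, edgeR). With both mutants it reached 1218.6, 1092.8 and 1314.8, above each NRAS library, though this step did not pass (1.00, SE 0.37, adjusted p = 0.268). With SETBP1 alone it had 108.9, 88.3 and 309.9 (adjusted p = 0.0211); these overlap the control values, and the highest is SETBP1 replicate 3. Plau, the urokinase that activates plasmin, had at most 1.77 normalised CPM in a control library and 10.4 to 13.7 with NRAS. Only the libraries with NRAS gave Plau enough counts to be tested, so it could hardly fall.

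Fam20c, the Golgi kinase that phosphorylates secreted proteins such as osteopontin, rose from 132.3 ± 7.73 (SD, n = 3) to 423.6 ± 22.5 normalised CPM with NRAS. Acp5, the tartrate-resistant phosphatase that can strip those phosphates, went the other way, from 18.2, 18.3 and 18.3 to 3.70, 3.38 and 5.57 (log2 difference -2.11, SE 0.26, adjusted p = 3.47e-05, edgeR). With SETBP1 alone Acp5 rose to 42.3 ± 11.5 (adjusted p = 0.00524), so the mutants moved it in opposite directions while Spp1 was higher with either. F13a1, the transglutaminase subunit of coagulation factor XIII, fell from 750.9 ± 42.5 to 195.0 ± 12.7 with NRAS. It was lower again with both mutants, 124.0 ± 24.6 (adjusted p = 0.0397), a call that 10 of 22 alternative settings lost. Tgm2, the other crosslinking enzyme, had 320.4 ± 26.2 with NRAS and 243.2 ± 20.3 with both (adjusted p = 0.0322; lost in 7 of 22 settings). These were the 2 enzymes that passed in this step; without SETBP1 replicate 3, 3 were higher and 3 lower, and 0 passed without control replicate 1 or 3, NRAS replicate 2 or 3, or replicate 1 or 3 of the group with both mutants.

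Mmp9, gelatinase B, differed between the mutants as well: 74.2 ± 7.98 normalised CPM with empty vectors, 30.0 ± 13.4 with SETBP1 (adjusted p = 0.00761, edgeR) and 144.5 ± 23.5 with NRAS (adjusted p = 0.00809). Its level with both mutants was 75.6 ± 9.83. Mmp2 fell with NRAS from 9.72 ± 2.27 to 4.18 ± 2.71 (adjusted p = 0.0477), which 10 of 22 settings lost. With NRAS added to SETBP1 the calls were those of NRAS against empty vectors. Plau, Mmp9, Mmp12 and Fam20c rose and Mmp2, Acp5 and F13a1 fell, where 20.9% and 21.5% of all genes did.

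Of 19 factors reported to act on the Spp1 promoter, 9 rose and 3 fell with NRAS (10 and 5 without SETBP1 replicate 3), where 17.0% and 15.5% of all genes did. Among the 9, Etv4 had enough counts to be tested only through the libraries with NRAS. The bindings themselves were not measured. Fosl1, an AP-1 subunit that ERK signalling stabilises, stood at 3.10, 2.92 and 2.02 normalised CPM with empty vectors and at 44.1, 39.6 and 43.2 with NRAS (log2 difference 3.96, SE 0.19, adjusted p = 4.28e-09, edgeR). Ets2, an ETS factor activated by ERK phosphorylation, rose from 20.4 ± 3.32 (SD, n = 3) to 121.1 ± 18.8. Jun rose from 29.4 ± 3.17 to 94.1 ± 7.39 and Fosl2 from 8.52 ± 1.45 to 19.9 ± 0.513. Ets1 fell from 55.4 ± 9.02 to 26.8 ± 3.99 and Runx1, the blood RUNX factor, from 112.7 ± 8.08 to 65.7 ± 7.31.

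With SETBP1 alone 4 of the 19 rose and 3 fell, where 8.31% and 6.55% of all genes did. Fos, the AP-1 subunit of the immediate early response, had 14.9, 16.6 and 13.8 normalised CPM with empty vectors and 47.7, 24.8 and 56.0 with SETBP1 (2.84-fold, adjusted p = 0.00242, edgeR). Junb rose from 97.6 ± 2.32 to 198.2 ± 36.4, Jun from 29.4 ± 3.17 to 47.5 ± 6.01, and Myc from 513.2 ± 36.3 to 652.7 ± 48.1. Fosl1 stood at 2.73 ± 0.588 (adjusted p = 0.971) and Ets2 at 22.1 ± 2.22 (adjusted p = 0.572). Stat3 and Runx1 fell, to 133.4 ± 19.4 from 183.5 ± 2.75 and to 77.3 ± 17.5 from 112.7. In a fit of these 2 groups alone, in which 110 genes were called in place of 1633, 1 of the 4 (Junb) and 0 of the 3 were called.

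Ets1 was the only factor past the threshold between both mutants and NRAS alone in edgeR, with 26.1, 23.1 and 31.0 normalised CPM with NRAS and 9.50, 8.57 and 9.95 with both (log2 difference -1.52, SE 0.24, adjusted p = 0.00515, edgeR). Mean Ets1 levels were 55.4 with empty vectors, 22.3 with SETBP1, 26.8 with NRAS and 9.34 with both. The SETBP1 libraries (32.4, 18.2 and 16.3) overlapped those with NRAS alone, so the order of these groups is open. A link between Ets1 and Spp1 was not tested. Ets2 stood at 151.8, 150.7 and 159.9 with both mutants, above each NRAS library, but did not pass (adjusted p = 0.232). Of all genes, 0.528% rose and 1.38% fell in this comparison. Without SETBP1 replicate 3, 4 factors were higher and 2 lower in it. With NRAS added to SETBP1, 8 factors rose and 5 fell (3 fell without any 1 library with both mutants), where 20.9% and 21.5% of all genes did. Fosl1 and Ets2 led those that rose, and Ets1, Runx1 and Spi1 (PU.1) those that fell.

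Spp1 is reported to follow RAS and ERK signalling, and 10 common transcriptional outputs of that pathway were listed. Of the 9 tested, 8 rose with NRAS and 0 fell, where 17.0% and 15.5% of all genes did. The median log2 difference was 2.53, that of all genes -0.01. Only the libraries with NRAS gave Dusp4, Spry4 and Etv4 enough counts to be tested, so these members could hardly do other than rise. Phlda1 stood at 4.20, 5.20 and 4.85 normalised CPM with empty vectors and at 61.8, 66.4 and 63.1 with NRAS. Ccnd1 (cyclin D1) rose from 11.5 ± 2.19 (SD, n = 3) to 101.2 ± 5.45, Epha2 from 2.66 ± 0.845 to 15.6 ± 1.66, and Spry4, a feedback inhibitor of the pathway, from 0.983 ± 0.594 to 7.12 ± 0.723. Spry2 did not pass (adjusted p = 0.377). The largest log2 difference of the 9 was the 3.75 of Phlda1, against 7.57 for Spp1.

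With SETBP1 alone 0 of these 9 passed in edgeR, where 8.31% and 6.55% of all genes rose and fell, while Spp1 was 3.11 times higher. In edgeR 2 had an unadjusted p under 0.05, and DESeq2 called 1 and limma-voom 0. Leaving out any 1 of the SETBP1 libraries gave 1 that rose, and leaving out SETBP1 replicate 1 also gave 1 that fell. Between both mutants and NRAS alone 0 passed as well (0 at an unadjusted p under 0.05, and 0 in DESeq2 and limma-voom), with a median log2 difference of 0.25. A fit of these 2 groups alone called 2, both higher.

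Spp1 marks a macrophage state that handles lipid and is found in tumours, and 23 genes reported with it there were listed, all of which could be tested. With SETBP1 alone 16 rose and 1 fell, with a median log2 difference of 0.73, where 8.31% and 6.55% of all genes did. With NRAS 12 rose and 4 fell, median 0.60, where 17.0% and 15.5% of all genes did. These 2 comparisons share the control libraries; for the members named here the values are set side by side. Gpnmb, a lysosomal glycoprotein, had 265.5, 391.7 and 436.7 normalised CPM with empty vectors and 923.7, 795.0 and 1688.2 with SETBP1 (log2 difference 1.64, SE 0.26, adjusted p = 0.00285, edgeR), but 264.1, 202.9 and 171.0 with NRAS. That fall with NRAS (-0.78, adjusted p = 0.0363) was lost in 8 of 22 settings.

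Apoe, the apolipoprotein of lipid efflux, went in opposite directions. It stood at 228.7, 260.1 and 209.7 normalised CPM with empty vectors, at 462.6, 547.4 and 1054.3 with SETBP1 and at 11.8, 9.87 and 3.67 with NRAS. The rise had a log2 difference of 1.56 (SE 0.29, adjusted p = 0.00579, edgeR) and the fall one of -4.79 (SE 0.38, adjusted p = 5.33e-07). Fabp4, a fatty acid carrier, rose with both, from 3.35 ± 2.54 (SD, n = 3) to 16.5 ± 6.24 and 8.63 ± 1.55. Hmox1, haem oxygenase, rose from 120.9 ± 22.3 to 344.6 ± 129.7 and 635.9 ± 71.4. Lpl, lipoprotein lipase, stood at 157.4 ± 35.2 with empty vectors and 198.7 ± 36.8 with SETBP1 (adjusted p = 0.151), and rose to 1205.7 ± 53.7 with NRAS. Arg1, arginase, rose from 369.1 ± 76.7 to 723.6 ± 265.6 with SETBP1 (adjusted p = 0.0126, with overlap) and 1556.3 ± 91.3 with NRAS, and was 2599.8 ± 323.9 with both mutants, a further step that did not pass (adjusted p = 0.112). Fn1, fibronectin, fell with both, from 153.1 ± 23.8 to 84.2 ± 11.1 and 54.0 ± 11.4.

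**Figure D5:**
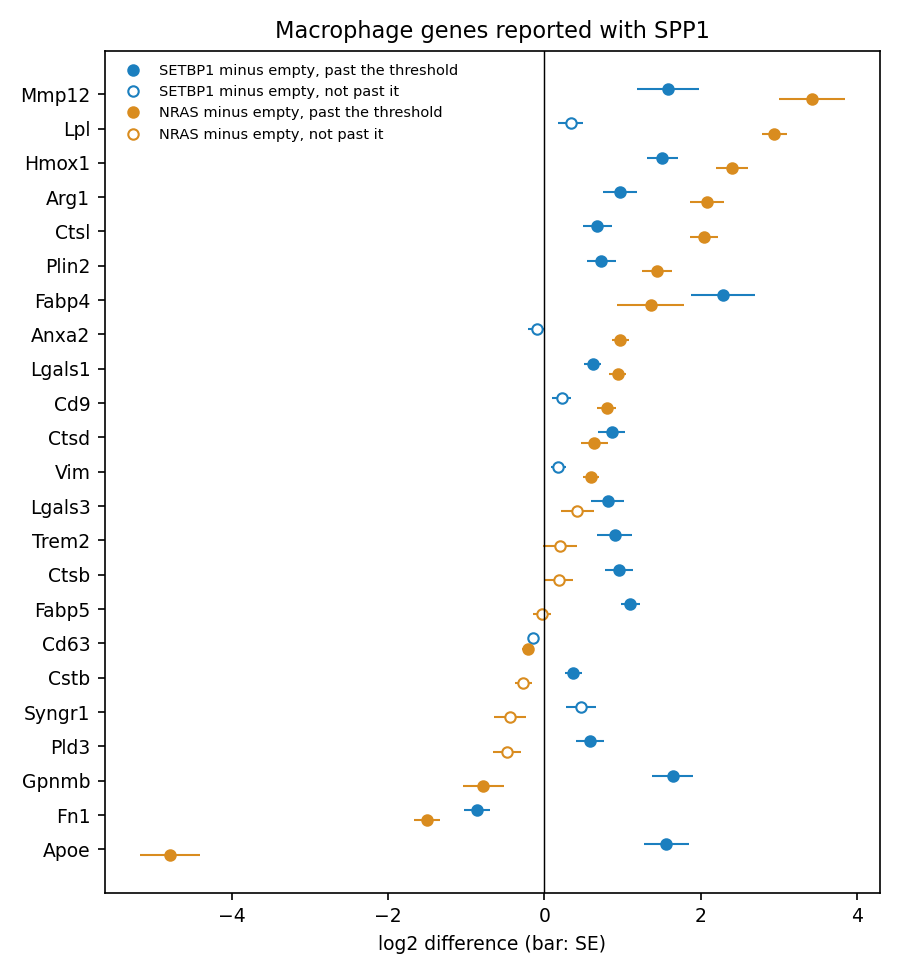
Log2 differences (points, with SE bars) of the 23 listed macrophage genes for SETBP1 minus empty vectors (blue) and NRAS minus empty vectors (orange), filled where the adjusted p is under 0.05. Mmp12, Hmox1 and Arg1 lie to the right in both, Fn1 to the left in both, and Apoe and Gpnmb on opposite sides.

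When SETBP1 was added to NRAS, only Gpnmb of the 23 passed in edgeR, from 212.7 ± 47.3 (SD, n = 3) to 640.0 ± 115.2 (log2 difference 1.59, adjusted p = 0.00642), though 15 had an unadjusted p under 0.05 and the median was 0.31. This count turned on 1 library of another group: without SETBP1 replicate 3, 15 were higher and 1 lower, and a fit of these 2 groups alone gave 15 and 2. DESeq2 called 5 and 1. The SETBP1 count was 15 and 2 without that replicate, but 8 and 1 without control replicate 1 or without control replicate 3, and 4 rising and 1 falling in a fit of the 2 groups alone. With NRAS it was 14 rising and 6 falling without SETBP1 replicate 3, and 2 fell without control replicate 2 or 3, NRAS replicate 2 or replicate 1 of the group with both mutants. With NRAS added to SETBP1, 10 rose and 8 fell, where 20.9% and 21.5% of all genes did. Mmp12, Lpl, Ctsl (cathepsin L) and Arg1 led those that rose, and Apoe, Syngr1, Pld3 and Gpnmb those that fell.

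Other secreted matrix proteins were mostly absent or nearly so in every group, or lower with NRAS, apart from Thbs1, the most abundant of them. Of 12 listed, 11 were in the table and 5 could be tested; Vtn, Postn, Bgn and Lum had 0 counts in all libraries, and Sparc and Tnc stayed at or under 0.811 normalised CPM. With NRAS 1 rose and 3 fell, where 17.0% and 15.5% of all genes did. Vcan (versican) went from 43.7 ± 3.38 (SD, n = 3) to 9.09 ± 2.39, Fn1 fell as above, and Tgfbi went from 234.9 ± 13.2 to 112.0 ± 13.6. Thbs1, thrombospondin 1, rose from 2564.1 ± 220.9 to 4046.8 ± 458.3 (adjusted p = 0.0198, edgeR), a call lost in 4 of 22 settings. It made up most of the list's sum, which was 2863.6 to 3243.7 with empty vectors and 3901.0 to 4784.4 with NRAS. Per kilobase Thbs1 stood above Spp1 in the control libraries, at 438.5 normalised CPM against 86.5, and far below it with NRAS, at 692.0 against 16417.5. With SETBP1 alone Ecm1 rose and Vcan, Fn1 and Thbs1 fell, where 8.31% and 6.55% of all genes did. The Ecm1 call was lost in 3 and the Thbs1 call in 6 of 22 settings. When SETBP1 was added to NRAS 0 of the 5 passed in edgeR (2 had an unadjusted p under 0.05; DESeq2 called 1 and limma-voom 0).

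The test of the difference between the SETBP1 steps with and without NRAS (the interaction) called 5 genes, 0.0455% of those tested. None of the receptors, enzymes, promoter factors, MAPK outputs, macrophage genes or matrix proteins was among them in edgeR. At an unadjusted p under 0.05 there were 3, 0, 4, 2, 10 and 1 in these lists; DESeq2 called 1 promoter factor and 0 in the other 5 lists, and limma-voom 0 in all 6.

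Markers of other cells were read beside these results. Bone-forming and stromal cells are a usual source of osteopontin: of 12 of their markers, Col3a1, Cxcl12 and Pdgfra had 0 counts in all libraries and the 12 together summed to 3.32 to 4.72 normalised CPM with empty vectors and 6.22 to 8.74 with NRAS. The 1 that could be tested, Pdgfrb, rose with NRAS, a call lost without control replicate 1 or 2 or NRAS replicate 3. The 9 osteoclast markers summed to 92.1 to 101.3 with empty vectors and 112.1 to 124.0 with NRAS, with Calcr at 0. Of 7 tested 3 rose and 2 fell with NRAS (1 without control replicate 2 or 3 or any 1 NRAS library), where 17.0% and 15.5% of all genes did. Among those that rose, Dcstamp and Ocstamp had enough counts to be tested only through the libraries with NRAS. T and NK markers did not exceed 0.995 in sum.

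Of all genes tested, 8.31% rose and 6.55% fell with SETBP1, and 17.0% and 15.5% with NRAS. When SETBP1 was added to NRAS the shares were 0.528% and 1.38%, and when NRAS was added to SETBP1 20.9% and 21.5%. The 13 monocyte and macrophage markers did not move with Spp1 in one direction. With SETBP1 8 rose and 0 fell, and their sum went from 14463.2 to 16844.6 in the control libraries to 19421.3 to 37269.5. The highest sum is SETBP1 replicate 3, with Lyz2 at 30073.2 against 14133.3 and 16364.4 in the other SETBP1 libraries. With NRAS 2 rose and 7 fell, and 3 rose and 10 fell without SETBP1 replicate 3. Leaving out NRAS replicate 3 gave 4 that fell, and leaving out NRAS replicate 1 gave 1 that rose. The sum with NRAS was 6948.3 to 7992.7, lower than in each control library, while Spp1 was 189.6 times higher. Lyz2 and Ly6c2 made up most of that sum, at means of 11115.9 and 3247.7 with empty vectors and 3247.1 and 2863.1 with NRAS. The fall in the sum was thus mostly that of Lyz2. When SETBP1 was added to NRAS 7 rose and 1 fell (9 and 1 without SETBP1 replicate 3, but 0 to 4 in all without any of control replicates 1 to 3, NRAS replicates 2 and 3 or the 3 libraries with both mutants). Without control replicate 1 or 3 the SETBP1 count was 5 or 4. The 9 late neutrophil markers tested fell in part in each comparison: 7 with SETBP1, 5 with NRAS (1 rose), 8 when SETBP1 was added to NRAS, and 6 when NRAS was added to SETBP1. Mast cell and basophil markers fell too, 6 of 8 with SETBP1 (3 without control replicate 1 or 3) and 7 of 8 with NRAS (4 without control replicate 2). With SETBP1 2 of 5 megakaryocyte markers rose (Pf4 and Ppbp; 0 to 1 without any 1 control library), and with NRAS 2 fell (Itga2b and Gp1ba; 4 without SETBP1 replicate 3 and 1 without control replicate 1 or NRAS replicate 2). Their sum was 195.7 to 233.7 with empty vectors, 278.5 to 601.9 with SETBP1 and 138.2 to 195.8 with NRAS. The 601.9 is SETBP1 replicate 3, with Pf4 at 368.6 against 137.5 and 148.1 in the other SETBP1 libraries. In a fit of the SETBP1 and control libraries alone, 2 monocyte and macrophage markers and 0 megakaryocyte markers rose. In that fit 4 late neutrophil markers and 3 mast cell and basophil markers fell. Of 5 endothelial markers 2 were tested, Pecam1 and Kdr, and both rose with NRAS. Kdr had 0, 4 and 1 counts with empty vectors, and only the libraries with NRAS gave it enough counts to be tested. The list summed to 175.9 to 281.1 with NRAS against 100.4 to 116.2 with empty vectors, nearly all of it Pecam1 (173.1, 236.2 and 278.8 with NRAS). Cdh5, Tek and Emcn stayed at or under 1.55 normalised CPM in each library. The B-cell marker Cd79b fell with NRAS. The part of these marker changes in the values of Spp1 and of its receptors, Itgb3 included, was not tested.

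Over the 12 libraries the genes whose log2 CPM followed that of Spp1 most closely, among 9470 with a mean count of at least 50 in their highest group, were Ppp2r1a, Mtap, Tubb6, Pkd1l2, AA467197, Pfkp, Kcnn4, Adam8, Tmem171 and Cct7. Their Pearson r ran from 0.997 to 0.992, and Spearman's rho from 0.825 to 0.993. These points fall into 2 clusters, with and without mutant NRAS, and 643 genes had r over 0.9. Only 2 of the 10 names were kept by Spearman's rho and 6 without SETBP1 replicate 3, and 0 were among the 10 most alike over the 6 libraries without mutant NRAS. A high r did not mean a like size: Adam8, a membrane protease, stood at 111.3 ± 2.64 (SD, n = 3) normalised CPM with empty vectors and 1520.1 ± 76.8 with NRAS, and Ppp2r1a, the scaffold subunit of protein phosphatase 2A, at 266.6 ± 5.29 and 346.3 ± 3.74. Tubb6, a β-tubulin, rose from 118.3 ± 5.36 to 528.7 ± 8.80 with NRAS and was 160.4 ± 27.7 with SETBP1 alone and 647.4 ± 10.8 with both, the same order of groups as Spp1. At the other end stood Cyp4v3, Tifab and Pcyox1, with r of -0.990, -0.989 and -0.987; Tifab went from 345.1 ± 30.9 to 141.2 ± 14.1 with NRAS.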

How the data were processed

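RNA of 12 mouse bone marrow libraries was profiled. RNA was prepared for sequencing with a low-input SMART-Seq kit, per the labels' protocols. The authors deposited raw counts per gene symbol; STAR, DESeq2 and the mm10 build are named in the submitters' processing notes, without versions or roles. The counting tool, annotation, strand setting and treatment of multiply mapped reads are not given in the sources used here, so close paralogs and overlapping genes are uncertain.

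Genes passing edgeR's filterByExpr (minimum count 10, minimum total 15; 10993 of 19910) were fitted with edgeR 4.0.16 in R 4.3.3: TMM scaling, 4 group means, all 12 libraries, quasi-likelihood F test, Benjamini-Hochberg adjustment over all genes tested, threshold 0.05. The alternatives were other scalings, DESeq2 1.42.0, limma-voom (limma 3.58.1), other filters, a replicate block, only the groups compared, and each library left out. Log2 CPM used a prior count of 2; transcript lengths came from GENCODE M21 (19898 symbols matched). Totals of 7085894 to 8864919 counts limit precision; Spp1 took at most 3.24% of a library, which lowers the CPM of other genes by little.

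Spp1 and the gene lists were chosen with earlier results of these data known. Named genes were all receptors and SIBLING genes, and of each other list up to 4 per comparison and direction with the largest log2 change among those past the threshold, without overlap and with an average of 50 counts or more in whichever group was higher; others are levels only. The labels do not say whether the replicate numbers pair samples. Of 18 pairs with the same number 1 had a correlation of deviations over 0.1, and of 36 with other numbers 3 had. Such correlations cannot exclude a shared origin, and no pairing was used in the main fit.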

Additional observations from a re-analysis of the deposited data

Results flagged for a closer look

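Itgb1, the β1 integrin subunit of several osteopontin receptors, drew attention because its libraries moved in opposite directions when mutant SETBP1 was added. Without NRAS all 3 SETBP1 libraries (270.9, 253.5 and 261.3 normalised CPM) lay below all 3 control libraries (279.4, 275.5 and 299.6). With NRAS all 3 libraries with both mutants (410.5, 408.5 and 395.7) lay above all 3 with NRAS alone (336.0, 331.8 and 389.9). Neither step passed in edgeR (adjusted p = 0.259 without NRAS and 0.252 with it). The difference between these steps was 0.32 on the log2 scale (SE 0.10), and edgeR's test of it did not pass (adjusted p = 0.268 over 10993 genes).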

How the results depend on the processing

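Under every setting run for them, the levels of Spp1 moved by less than the SD of their group. Its log2 differences moved by less than the largest SD of the groups involved, and its ranks by coding length by less than 1.5 times. These were 109 differences, 24 levels and 4 ranks, with 0 reversals. Leaving out 1 of 3 libraries cannot move a group mean by as much as the SD, so for those levels the outcome was fixed in advance. The limit was also a wide one for the differences of Spp1, so their ranges are given below. Of values recomputed after seeing the data, its CV ran from 27.1% to 64.0% with empty vectors, 31.8% to 69.1% with SETBP1, 5.44% to 10.9% with NRAS and 3.42% to 14.8% with both over omissions of 1 library, and the ratio of the CPM added by SETBP1 reached 42.5. Its gain in share stayed the largest of any gene in the 3 comparisons with NRAS. Its ranks by log2 difference were not recomputed. Leaving out 1 library moved its log2 difference between 1.13 and 2.11 for SETBP1 against empty vectors (lowest without SETBP1 replicate 3), 7.29 and 8.03 for NRAS against empty vectors, 0.28 and 0.43 for both mutants against NRAS, 5.96 and 6.78 for both against SETBP1, and -1.77 and -0.79 for the interaction. Its levels moved between 94.4 and 157.5 normalised CPM with empty vectors, 286.3 and 498.1 with SETBP1, 23772.1 and 25682.6 with NRAS, and 30029.5 and 33255.3 with both.

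Counts of genes called moved more. Over omissions of 1 library they ran from 390 (without control replicate 3) to 3191 (without SETBP1 replicate 1) for SETBP1 against empty vectors, 2681 to 5224 for NRAS against empty vectors, 93 to 836 for both against NRAS, 3680 to 5166 for both against SETBP1, and 1 to 110 for the interaction; the 4 last maxima came without SETBP1 replicate 3. Control replicate 1 or 2 left out gave 494 and 1088 for SETBP1, SETBP1 replicate 1 left out gave 76 for the interaction, and any library of the 2 groups left out gave 93 to 139 for both against NRAS. A fit of only the groups compared called 110 for SETBP1 against empty vectors, 883 for both against NRAS and 3083 for both against SETBP1, against 1633, 210 and 4661. DESeq2 called 379 for both against NRAS and 81 for the interaction, where limma-voom called 3 and the fit without a low-count filter 14, against 5. Scaled by library size alone, the interaction split was 3 higher and 4 lower, against 1 and 4. The cause of these shifts was not tested.

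Receptor counts ran over omissions from 1 to 2, 7 to 8, 0 to 2, 7 to 8 and 0 to 1 in the same order of comparisons. DESeq2 and limma-voom each called 2 for SETBP1 against empty vectors in place of 1; for both against NRAS, DESeq2 called 1 and the fit of only those groups 2, in place of 0. Of the 10 genes most like Spp1, 2 were shared by Spearman's rho, 6 without SETBP1 replicate 3 and 0 over the 6 libraries without NRAS. Of 93 calls of named genes 71 held in each of the 22 settings that tested the gene, and none reversed. A setting whose filter left the gene out was not counted against the call.

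The labels do not say whether the replicate numbers pair samples (correlations of -0.127 to 0.124 over 18 pairs with the same number). A fit with a replicate block gave Spp1 differences of 1.59, 7.55, 0.35, 6.30 and -1.24 in the same order. It called 1177, 3339, 164, 4404 and 6 genes.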
